A study of Homo sapiens with 6 samples.

Results

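The expression of the membrane-tethered basic leucine zipper (bZIP) transcription factors and of the proteases that release them was examined in DLD1, an established human colorectal cancer line. The set held 10 genes of the 18132 measured: CREB3, CREB3L1, CREB3L2, CREB3L3, CREB3L4, ATF6, ATF6B, XBP1, MBTPS1 and MBTPS2. All 10 were measured, through 25 of the 44988 probe sets that carried exactly 1 gene symbol, and the brightest probe set of a gene gave its main value. No filter on low values was applied. The set was chosen on the group differences of these same 6 arrays, which were in view when it was proposed, so the differences of its members are given as a description. Whether a member was among the genes called by the fit over all genes says where it stood in that fit and is no independent evidence.

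The cells carried lentivirus that expressed either a control short hairpin RNA (shRNA) or an shRNA against CDKL1, a serine/threonine kinase that resembles cyclin-dependent kinases. Each group held 3 samples, each read on 1 Affymetrix array. All 6 samples shared the cell line and growth in RPMI1640 with fetal bovine serum. The labels name neither the hairpin sequences nor their number, nor do they give the time after infection.

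Most of these factors are made as inactive proteins of the endoplasmic reticulum (ER) membrane. On transport to the Golgi they are cut in the lumen by the site-1 protease, the product of MBTPS1, and then within the membrane by the site-2 protease, the product of MBTPS2, which frees the bZIP domain to enter the nucleus. XBP1 differs: it is switched on when the ER kinase IRE1 (ERN1) excises a short intron from its mRNA, and ATF6 and XBP1 together drive the genes of the unfolded protein response. Because activation is by cleavage or splicing, mRNA levels do not measure the activity of these proteins. Activity was not measured here.

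The windows before the transcription starts of the 4 members that bear most on the results are shown first, since elements bound by these same factors can be looked for in them. Promoter windows of all 10 members were found in the RefSeq table of build GRCh38.p14, and the most upstream start of a gene was used. Each sequence runs 5′ to 3′ on the gene's strand over the 250 bases before the start. Capitals mark matches, on either strand, to the ER stress response element ERSE (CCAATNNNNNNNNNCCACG), to the second such element ERSE-II (ATTGGNCCACG), to the core of the unfolded protein response element (TGACGTGG, called UPRE-type), or to the full cAMP response element CRE (TGACGTCA). They also mark the short core TGACG, which lies inside the full CRE and the UPRE-type element. The other short core marked is CCACG, which lies inside ERSE, ERSE-II and, on the opposite strand, the UPRE-type element.
CREB3, chr9:35732416-35732665, plus strand: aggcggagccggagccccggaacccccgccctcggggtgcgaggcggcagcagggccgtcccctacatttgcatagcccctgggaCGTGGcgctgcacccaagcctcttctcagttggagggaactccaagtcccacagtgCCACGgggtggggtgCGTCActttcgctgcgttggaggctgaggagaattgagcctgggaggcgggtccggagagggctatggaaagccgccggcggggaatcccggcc
CREB3L2, chr7:138002087-138002336, minus strand: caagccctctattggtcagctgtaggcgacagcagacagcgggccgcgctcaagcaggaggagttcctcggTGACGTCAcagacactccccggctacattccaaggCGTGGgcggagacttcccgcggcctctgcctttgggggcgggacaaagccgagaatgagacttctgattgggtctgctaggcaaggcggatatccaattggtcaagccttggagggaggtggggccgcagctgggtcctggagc
ATF6, chr1:161766070-161766319, plus strand: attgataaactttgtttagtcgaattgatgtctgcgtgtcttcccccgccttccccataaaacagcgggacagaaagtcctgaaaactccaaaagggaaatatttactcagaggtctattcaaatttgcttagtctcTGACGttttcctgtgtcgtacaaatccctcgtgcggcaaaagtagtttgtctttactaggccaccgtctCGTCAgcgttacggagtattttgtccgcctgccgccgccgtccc
XBP1, chr22:28800570-28800819, minus strand: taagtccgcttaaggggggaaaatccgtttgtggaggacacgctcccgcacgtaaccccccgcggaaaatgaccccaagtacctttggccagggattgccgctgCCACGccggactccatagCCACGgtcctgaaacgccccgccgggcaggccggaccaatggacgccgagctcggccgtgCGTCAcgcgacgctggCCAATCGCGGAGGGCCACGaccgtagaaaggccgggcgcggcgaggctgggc

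Among the 10 members, XBP1 alone held an ERSE in this window, at 52 to 34 bases before its start, against 0.104% of the promoters of 14425 measured genes. CREB3L2 alone held a full CRE, at 179 to 172 bases before its start, an element found in 2.36% of all promoters. No member window held an ERSE-II or a UPRE-type element, found in 0.0832% and 0.742% of all promoters. The TGACG core stood in 4 of the 10 windows, those of CREB3, CREB3L2, ATF6 and XBP1, against 25.7% of all promoters. The CCACG core stood in 5 of 10, those of CREB3, CREB3L2, CREB3L4, XBP1 and MBTPS1, against 39.5%. A match describes letters in this window and does not show that a factor binds there.

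A few facts of the whole experiment touch every value below. CDKL1 itself had log2 levels of 4.51, 4.42 and 4.17 in control arrays and 4.25, 4.20 and 4.08 in CDKL1 shRNA arrays, so the groups overlapped, and its change of -0.19 (SE 0.09) was not called (limma, adjusted p = 0.219). The array's background controls of medium base composition (10 to 16 G or C) lay at 2.97 to 4.92, which covers these levels, and this probe set therefore could not check the knockdown. The 3′ minus 5′ difference of the ACTB control probe sets, a sign of RNA quality, was 1.39 to 1.41 in control arrays and 1.52 to 1.73 in CDKL1 shRNA arrays. The same difference for GAPDH was 0.19 to 0.22 in control arrays and 0.25 to 0.30 in CDKL1 shRNA arrays. For neither gene did the ranges overlap, so a fit with the ACTB difference as a covariate cannot fully separate RNA quality from the shRNA. The epithelial markers EPCAM, CDH1 and KRT18 had control means of 13.52, 12.73 and 14.32, each above that background range. VIL1, a marker of the intestinal brush border, had a control mean of 5.85, also above it.

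Of the 10 members, CREB3 and ATF6 were higher and CREB3L2 was lower in CDKL1 shRNA arrays, and the other 7 were not called. CREB3 was 1.65-fold higher (95% interval 1.51 to 1.81), CREB3L2 1.54-fold lower (1.42 to 1.67) and ATF6 1.25-fold higher (1.15 to 1.35), with 3 arrays in each group. The fit over all genes called 16.8% of 18132 genes at an adjusted p of 0.05 (limma, Benjamini-Hochberg), 8.97% as higher and 7.79% as lower. The members' own differences helped to choose the set, so nothing is read from 3 of 10 against that share. The median log2 change of the 10 was 0.09, against -0.01 over all genes, and their median absolute change was 0.13 against 0.09. The arrays read RNA of whole cultures, so fewer expressing cells and less RNA per cell cannot be told apart.

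**Figure D1:**
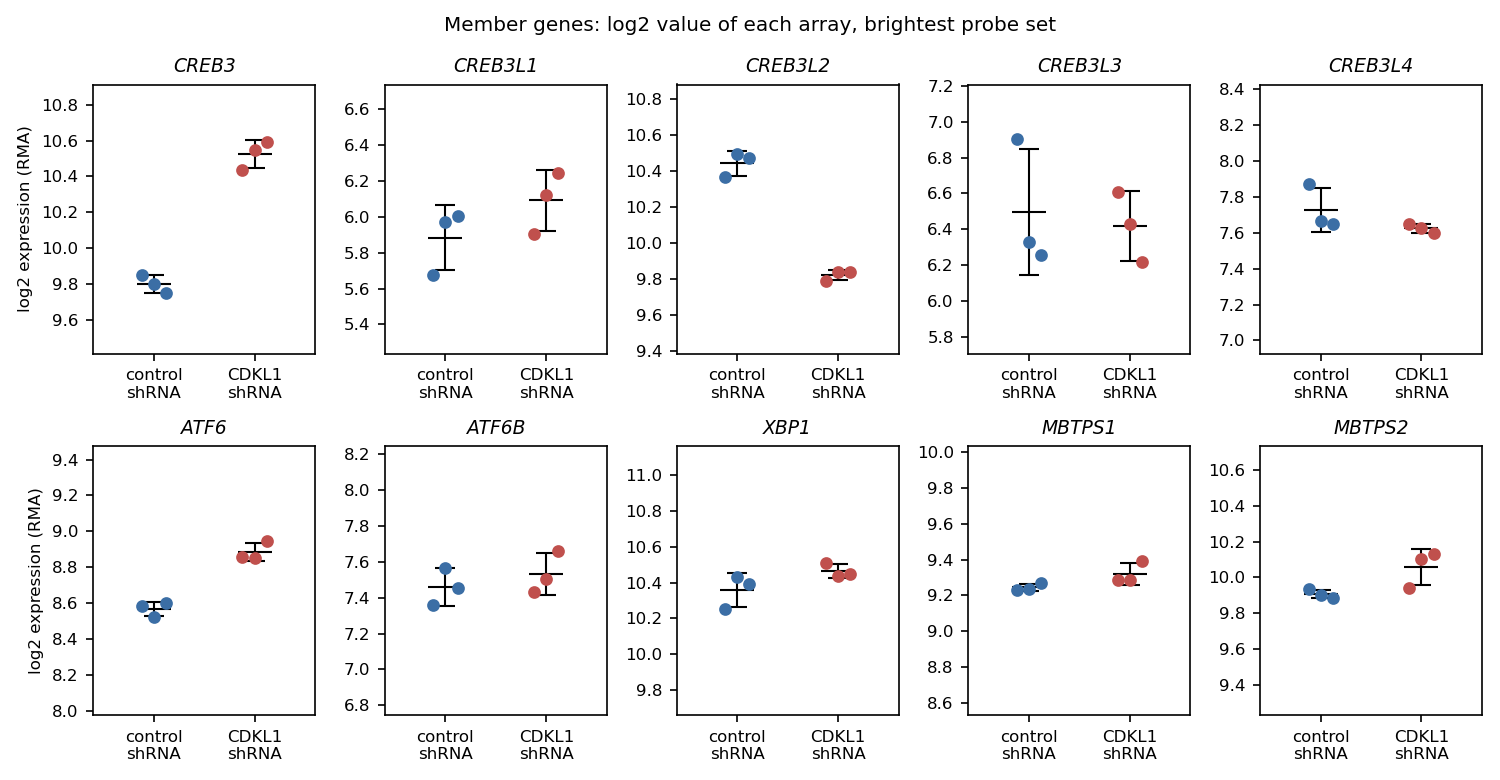
Log2 expression of each member gene in each array, from its brightest probe set: blue points are the 3 control shRNA arrays, red points the 3 CDKL1 shRNA arrays, and the black bars give mean and SD. Every panel spans the same height on the log2 axis but starts at its own level; CREB3 and ATF6 lie higher, and CREB3L2 lower, in all CDKL1 shRNA arrays.

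CREB3 (also called Luman or LZIP) is the founding member of its family and is known as a factor of the Golgi stress response. Its log2 level was 9.85, 9.80 and 9.75 in control arrays and 10.44, 10.54 and 10.59 in CDKL1 shRNA arrays. The groups did not overlap, and the gap between the highest control array and the lowest CDKL1 shRNA array was several times the spread inside either group. The means were 9.80 ± 0.05 and 10.52 ± 0.08 (SD, n = 3 each), and the log2 change was 0.72 (SE 0.06, 95% interval 0.59 to 0.85), rank 114 of all genes by absolute change. CREB3 had 1 probe set in the table, so no other probe set could be compared. With each array left out in turn the change was 0.69 to 0.77 and CREB3 was called each time.

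CREB3L2 (BBF2H7) is known from cartilage, where it drives secretory genes, among them the coat protein gene SEC23A. Its brightest probe set lay at 10.37, 10.50 and 10.47 in control arrays and at 9.79, 9.84 and 9.84 in CDKL1 shRNA arrays, again without overlap. The means were 10.45 ± 0.07 and 9.82 ± 0.03 (SD, n = 3 each), a log2 change of -0.62 (SE 0.05, 95% interval -0.74 to -0.51). Leaving out any array kept it between -0.66 and -0.60, and called. The size of this fall rested on that probe set, whose suffix _s marks probes that can match more than 1 transcript. All 7 probe sets of CREB3L2 had a negative sign, but the other 6 ranged from -0.28 to -0.02 and none of them was called. Of those 6, 3 had mean levels of 3.95 to 4.63, inside the range of the background control probe sets. The 3 brighter ones, at mean levels of 7.36, 7.22 and 6.91, gave -0.12, -0.03 and -0.15. With the mean of all 7 probe sets CREB3L2 changed by -0.18 and was still called, whereas with the brightest probe set that had neither an _s nor an _x suffix the change was -0.03 and it was not called.

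The other family members were not called. CREB3L1 (OASIS), known from bone-forming cells and astrocytes, had 5.67, 5.97 and 6.01 in control arrays and 5.91, 6.12 and 6.24 in CDKL1 shRNA arrays, so that the groups overlapped. Its change was 0.21 (95% interval -0.06 to 0.47), and its second probe set gave -0.02. CREB3L3 (CREBH), a factor of liver and small intestine, was read at 6.90, 6.33 and 6.26 in control arrays and at 6.61, 6.43 and 6.22 in CDKL1 shRNA arrays, with wide overlap. Control shRNA replicate 1 stood highest here, and the change of -0.08 (95% interval -0.50 to 0.34) turned to 0.12 without it and to 0.02 without CDKL1 shRNA replicate 3. All 3 CREB3L3 probe sets had a negative sign, from -0.14 to -0.04, and none was called. CREB3L4 (AIbZIP), known from prostate and testis, had 7.87, 7.67 and 7.65 in control arrays and 7.65, 7.63 and 7.60 in CDKL1 shRNA arrays, so the lowest control value met the highest CDKL1 shRNA value. Its change was -0.10 (95% interval -0.26 to 0.05), and its other probe set gave 0.00. These intervals leave room for changes of either sign, and none of the 3 genes can be said to be unchanged.

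ATF6 is the ER stress sensor that, once cut, activates genes of ER chaperones and of ER-associated degradation. Its brightest probe set lay at 8.58, 8.52 and 8.60 in control arrays and at 8.86, 8.85 and 8.94 in CDKL1 shRNA arrays, and the groups did not overlap. The means were 8.57 ± 0.04 and 8.88 ± 0.05 (SD, n = 3 each), a log2 change of 0.32 (SE 0.05, 95% interval 0.20 to 0.43). A second probe set gave a like change of 0.34 (95% interval 0.18 to 0.50), and it was called in the fit over all 44988 probe sets, where 12.8% were. The remaining one gave 0.09 (-0.08 to 0.27) with overlapping groups, so the 3 probe sets of ATF6 had the same sign but not the same size. With an array left out the change was 0.29 to 0.33, called in each case. When the ACTB difference of each array entered the fit as a covariate, the ATF6 change was 0.36 (SE 0.09) and was no longer called. That fit called 219 genes in all, among them CREB3 at 0.67 and CREB3L2 at -0.65. Both calls lay close to the threshold of 0.05 (limma, adjusted p = 0.044 for CREB3 and 0.041 for CREB3L2). In the fit on group alone these were 0.00041 and 0.00048. For ATF6 the call was lost with a larger SE, not with a smaller change. The ACTB difference did not overlap between the groups, so this fit cannot tell RNA quality and shRNA apart.

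ATF6B, the paralogue of ATF6 that is described as a weaker activator, was not called. Its values were 7.36, 7.57 and 7.45 in control arrays and 7.43, 7.50 and 7.66 in CDKL1 shRNA arrays, with overlap. The change was 0.07 (95% interval -0.11 to 0.25), and the other probe set of ATF6B gave -0.16, so the mean of both was -0.046. Both of its probe sets carried the suffix _x, which marks probes that can match other sequences. The direction of ATF6B is therefore not settled by these arrays.

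XBP1, whose mRNA is spliced by IRE1, was read by 1 probe set, and no separate value for the spliced and unspliced forms was given. It had 10.25, 10.43 and 10.39 in control arrays and 10.51, 10.44 and 10.45 in CDKL1 shRNA arrays. The highest control value and the lowest CDKL1 shRNA value nearly touched, though the groups did not overlap. The log2 change was 0.11 (SE 0.06, 95% interval -0.03 to 0.24) and was not called. The upper bound equals a 1.18-fold rise of total XBP1 mRNA.

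Neither protease gene was called. MBTPS1 encodes the site-1 protease, a serine protease of the proprotein convertase family, and had 9.23, 9.24 and 9.27 in control arrays against 9.28, 9.29 and 9.39 in CDKL1 shRNA arrays. Its change was 0.08 (95% interval -0.04 to 0.19), and its dimmer probe set gave 0.00. MBTPS2 encodes the site-2 protease, a metalloprotease that cuts inside the membrane, and had 9.93, 9.90 and 9.89 against 9.94, 10.11 and 10.13. Its change was 0.15 (95% interval 0.01 to 0.29), with 0.10 in the second probe set. CDKL1 shRNA replicate 1 lay close to the control arrays, and without it the MBTPS2 change was 0.21 and was called. MBTPS2 was also called with an intensity trend in the prior variance and when only genes brighter than the median gene were tested.

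In all, 6 of the 10 members had groups that did not overlap, namely the 3 called genes, XBP1, MBTPS1 and MBTPS2, against 35.7% of all genes, a share from which nothing is read for the reason given above. Of the 15 probe sets that were not the brightest of their gene, 11 had a negative and 4 a positive sign, from -0.28 to 0.34, and 1 was called, a probe set of ATF6.

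**Figure D2:**
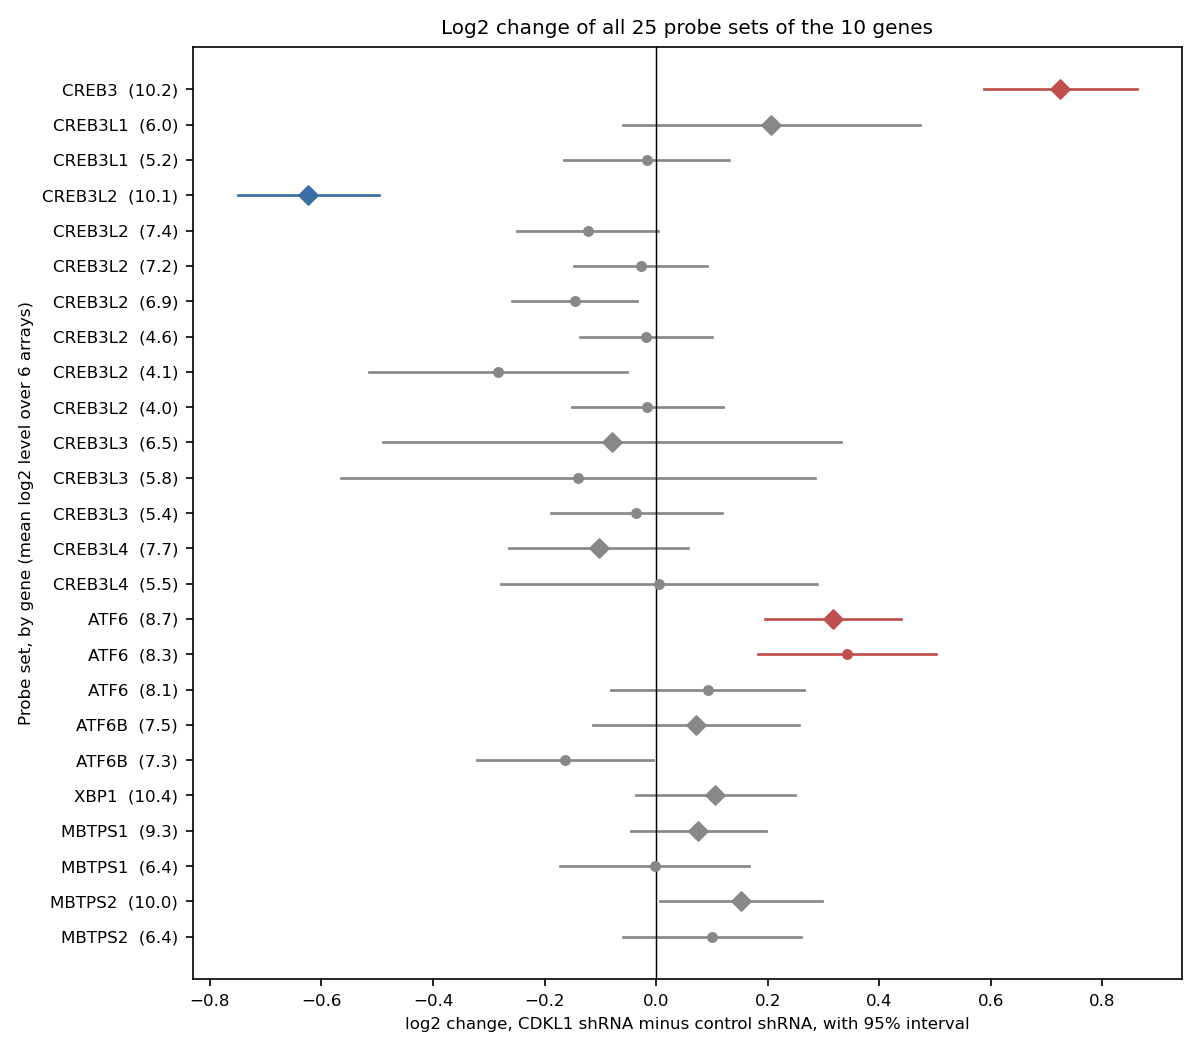
Log2 change (CDKL1 shRNA minus control shRNA) of all 25 probe sets of the 10 genes, with 95% intervals from the fit over all probe sets; the number beside a gene is the probe set's mean log2 level, diamonds mark the brightest probe set of a gene, red and blue mark probe sets called higher and lower, and grey those not called. The fall of CREB3L2 stands in its brightest probe set, whereas 2 of the 3 ATF6 probe sets lie near 0.3.

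The genes with profiles nearest to those of the 3 called members were found as the smallest Euclidean distance between mean-centred log2 values over the 6 arrays. For CREB3L2 the nearest was SEC23A, at a distance of 0.040, which changed by -0.65 (SE 0.05). INSIG1 (distance 0.067, change -0.57) and MRPL37 (0.076, -0.59) came next. The CREB3L2 profile was that of its _s probe set, and its other probe sets, which changed less, were not compared. For CREB3 the nearest genes were ARL2BP (0.089, change 0.74), PCYT1A (0.101, 0.71) and TRIM52 (0.107, 0.73). For ATF6 they were COCH, DCAF7 and ZNF552, at distances of 0.031, 0.032 and 0.036 and with changes of 0.32, 0.32 and 0.31. With 2 groups of 3 arrays, such nearness mostly reads an equal size and sign of the group difference.

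Genes that these factors are known to act on were then listed by role. These lists, here and below, were chosen with earlier results of these data known, so their counts are a description and no independent evidence. The fit over all genes called 16.8% of 18132 genes, 8.97% as higher and 7.79% as lower. When only genes brighter than the median gene were tested, 3991 of 9066 were called. Of 14 ER folding genes regarded as targets of ATF6 and XBP1, 1 rose, 3 fell and 10 were not called, with a median log2 change of -0.05. HSPA5, which encodes the main ER chaperone BiP and is the usual readout of ATF6, had a log2 change of -0.01 (95% interval -0.11 to 0.09). The genes that fell were PDIA3 (-0.42), SDF2L1 (-0.41) and MANF (-0.22), and the co-chaperone gene DNAJC3 rose by 0.32. Of 16 measured ER degradation and translocation genes, 11 rose, 1 fell and 4 were not called, with a median of 0.27. HERPUD1, a component of ER-associated degradation, rose by 0.75 (SE 0.05, adjusted p = 0.00025, limma), followed by SEC63 (0.38), DNAJB9 (0.36), DERL1 (0.35) and the ubiquitin ligase gene SYVN1 (0.33), while its partner SEL1L fell by 0.23. With the ACTB covariate 1 gene of the degradation list was called, HERPUD1, and 1 of the folding list, SDF2L1.

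Of 18 measured genes of transport between ER and Golgi, 12 rose, 1 fell and 5 were not called, with a median log2 change of 0.36 against -0.01 over all genes. ARF4, a small GTPase known as a target of CREB3 in Golgi stress, rose by 0.88 (SE 0.05, adjusted p = 0.000157, limma). The retrieval receptor gene KDELR3 rose by 0.86, the SNARE gene GOSR2 by 0.82, the COPI coat gene COPA by 0.63 and the COPII GTPase gene SAR1B by 0.42. Within the COPII coat the members parted: SEC23A fell by 0.65, while SEC23B rose by 0.31, SEC24D by 0.36, SEC24A by 0.62 and SEC31A by 0.64. With the ACTB covariate 5 were called, ARF4, COPA, GOSR2, KDELR3 and SEC23A. Of 10 measured targets of the family in bone, cartilage and liver, among them collagen and apolipoprotein genes, 0 were called by limma and 1 had an unadjusted p under 0.05. Several of them were dim. COL2A1 had a control mean of 4.08, inside the background range. FGF21, APOC2, CRP and COL1A2, at 4.94, 4.95, 5.04 and 5.09, lay close to its upper bound of 4.92. HAMP, at 10.11, was the brightest of the 10. Little can be read from the dim genes.

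**Figure D3:**
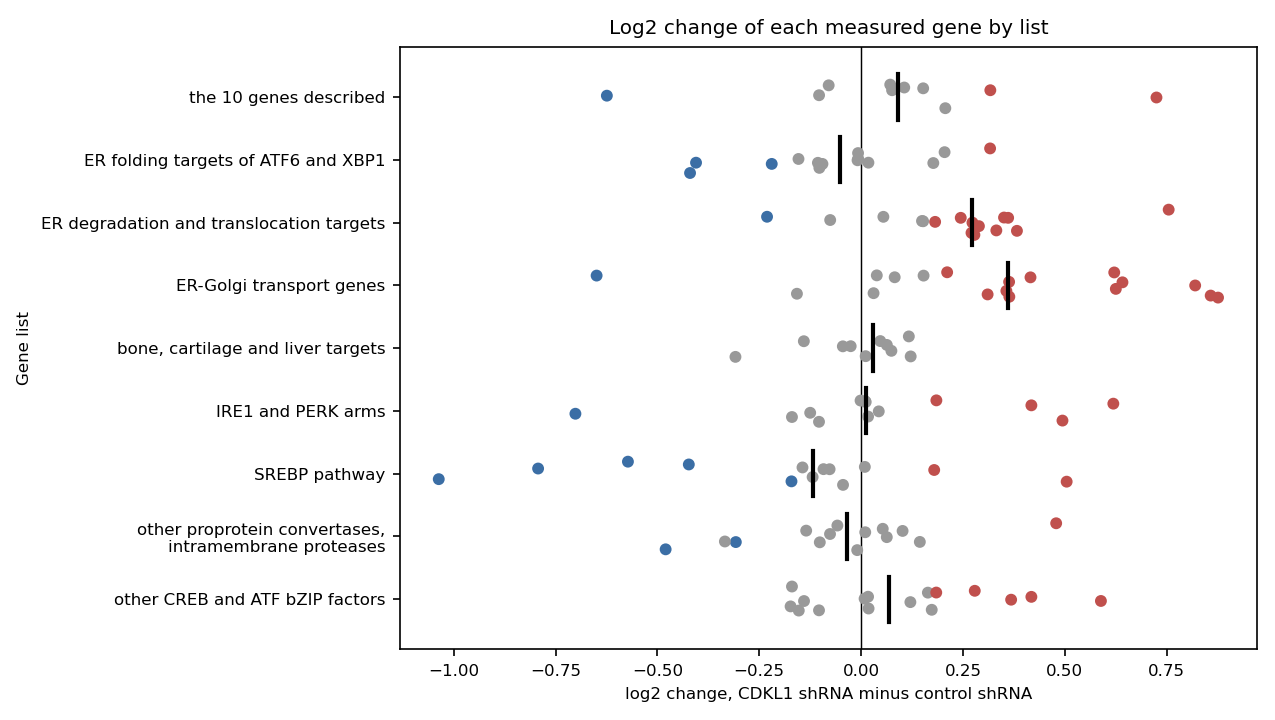
Log2 change (CDKL1 shRNA minus control shRNA) of each measured gene, one row of points per list; red and blue points are genes called higher and lower, grey points genes not called, and the black bar is the list median. The ER degradation and ER-Golgi transport lists have medians of 0.27 and 0.36, and the ER folding list -0.05.

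The promoter elements were counted in these lists as well. The UPRE-type element stood in the windows of 5 of the 16 transport genes with a promoter (31.2%), against 0.742% of all promoters, and in 0 of the 10 members. An ERSE stood in 4 of 13 ER folding promoters and in 0 of the transport promoters. Windows around some matches are shown to set element and change side by side, with the element in capitals and written on the gene's strand, so that CCACGTCA is TGACGTGG on the opposite strand.
SEC24A, chr5:134648581-134648638, plus strand: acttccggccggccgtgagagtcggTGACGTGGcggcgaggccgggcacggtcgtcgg
COPB1, chr11:14499827-14499884, minus strand: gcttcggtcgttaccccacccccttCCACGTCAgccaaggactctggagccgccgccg
KDELR3, chr22:38468025-38468082, plus strand: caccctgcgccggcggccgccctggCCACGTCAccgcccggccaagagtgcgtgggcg
ARF1, chr1:228082667-228082707, plus strand: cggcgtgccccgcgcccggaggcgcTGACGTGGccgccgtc
STX5, chr11:62832052-62832092, minus strand: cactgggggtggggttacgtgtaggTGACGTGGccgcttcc
HERPUD1, ERSE-II, chr16:56932000-56932060, plus strand: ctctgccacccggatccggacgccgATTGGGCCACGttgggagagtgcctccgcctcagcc
HSPA5, ERSE, chr9:125241366-125241434, minus strand: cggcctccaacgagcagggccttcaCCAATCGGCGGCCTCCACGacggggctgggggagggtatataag

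Of the 5 transport genes with a UPRE-type element, SEC24A, COPB1 and KDELR3 rose by 0.62, 0.36 and 0.86, and ARF1 and STX5, at 0.08 and 0.15, were not called. ARF4, the transport gene with the largest rise, had no UPRE-type match in its window. HERPUD1, with an ERSE-II, rose by 0.75, and HSPA5, with an ERSE, had a change of -0.01. SDF2L1 and HYOU1 of the ER folding list also held an ERSE-II. SDF2L1 changed by -0.41 and was called lower, and HYOU1 at -0.11 was not called. The matches thus stood beside called and uncalled genes alike.

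**Figure D4:**
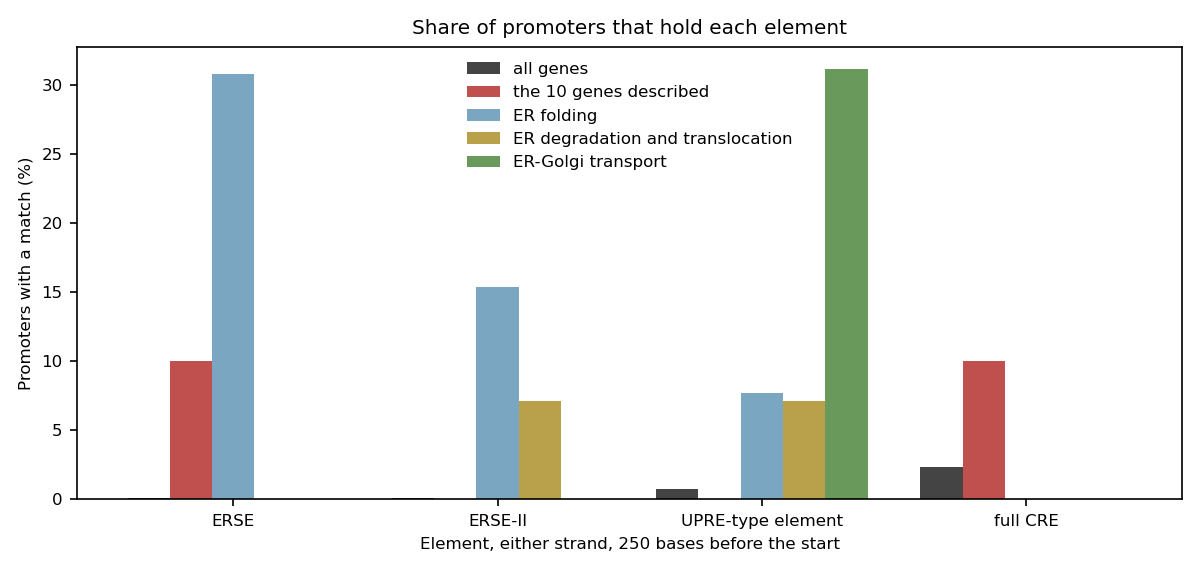
Share of promoters (%) with at least 1 match to each named element in the 250 bases before the start, on either strand, for all genes, the 10 genes described and 3 lists; groups with no bar have a share of 0 or, for all genes, under 0.2%. The UPRE-type element stood in 31.2% of the ER-Golgi transport promoters and in none of the 10 members' windows.

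The site-1 and site-2 proteases also release the sterol-sensing factors SREBF1 and SREBF2, so the genes of that route were read as well. SREBF1 had a log2 change of -0.12 (95% interval -0.23 to -0.01) and SREBF2 of -0.04 (-0.15 to 0.06), and neither was called. SCAP, their escort to the Golgi, was at -0.09 and was not called, while SPRING1, a cofactor of the site-1 protease, rose by 0.18. Over 13 measured genes of this list 2 rose, 5 fell and 6 were not called, and the count of called genes went from 7 to 4 without CDKL1 shRNA replicate 3. HMGCS1 fell by 1.04, SCD by 0.79 and INSIG1 by 0.57, whereas INSIG2 rose by 0.50. With the ACTB covariate 3 of the 7 were called, HMGCS1, INSIG1 and SCD. The calls of both genes that rose, INSIG2 and SPRING1, were lost. So were those of STARD4 (-0.42) and LSS (-0.17), which had fallen.

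Of the other sensors of the unfolded protein response, the PERK gene EIF2AK3 rose by 0.62 (SE 0.04, adjusted p = 0.000339, limma). ERN1, which splices XBP1 mRNA, was not called at 0.01 (95% interval -0.24 to 0.26). It was dim, with means of 5.38 in control and 5.39 in CDKL1 shRNA arrays, so little can be read from it. The related gene ERN2, with means of 7.99 and 7.86, changed by -0.13 (95% interval -0.25 to -0.00079) and was not called. RTCB, the ligase that rejoins XBP1 mRNA, rose by 0.18. Over 13 genes of these arms 4 rose, 1 fell and 8 were not called. PPP1R15B rose by 0.49 and ATF3 by 0.42, and TRIB3, a target of ATF4, fell by 0.70. With the ACTB covariate 2 of these 5 were called, EIF2AK3 and TRIB3, and the calls of PPP1R15B, ATF3 and RTCB were lost.

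In the same arrays 1 of 8 epithelial markers was called, VIL1, which fell by 0.57 (SE 0.12, adjusted p = 0.019, limma), and 4 of the 8 had an unadjusted p under 0.05. The summed linear level of the 8 was 69275 to 69842 in control and 65185 to 66607 in CDKL1 shRNA arrays, without overlap. Such a sum is led by its brightest genes, such as KRT18 at a control mean of 14.32, and hardly by VIL1 at 5.85. Of the markers of other cell types, 2 of 7 measured leukocyte markers rose, CD163 by 0.65 from a control level of 4.56 and CD68 by 0.39. The other 5 were not called, and the median log2 change of the 7 was -0.04. The summed linear level of the 7 was 299 to 320 in control and 338 to 365 in CDKL1 shRNA arrays, and PTPRC, the defining leukocyte marker, lay at 3.62 and 3.49, inside the background range. The mean levels of CD163 and LYZ over the 6 arrays lay inside it too, with CD163 at 5.21 in CDKL1 shRNA arrays. Of 8 fibroblast markers 1 rose, POSTN, with means of 4.35 and 4.57, inside the background range, where COL3A1, DCN and LUM lay as well. The sums of the 8 were 280 to 308 in control and 273 to 311 in CDKL1 shRNA arrays. Of 6 endothelial markers 0 were called by limma and 0 had an unadjusted p under 0.05. The part of these markers in the members' differences was not tested.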

How the data were processed

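Total RNA of 6 DLD1 samples was extracted with TRIzol and hybridised to Affymetrix arrays, per the labels' protocols. The deposited values are log2 expression per probe set, which the authors made with RMA, per the submitters' processing notes. No version or settings of RMA are given in the sources used here. Changes of dim probe sets are compressed by RMA. Scanner files were not analysed here, and 0 columns were left unused. Probe sets were named through the platform annotation: 44988 had 1 symbol, 1832 several (not used) and 2473 none.

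Each of 18132 genes was read from its brightest probe set and fitted with limma 3.58.1 in R 4.3.3 on group alone, two-sided, with Benjamini-Hochberg adjustment over all genes and a threshold of 0.05. The fit was tested on simulated data. "Called" means past this threshold. Members and gene lists were chosen with earlier results of these data known. Named genes were all 10 members, up to 5 called genes per direction of a list, fixed genes of known roles, and 3 nearest profiles each for the 3 members with the largest change. SEC24A, SEC23B, SEC31A, COPB1, ARF1, STX5, HYOU1, ERN2, CREB1 and CREM were added after their values or element matches were seen. Promoter elements were searched with Python 3.11.15. Genes of the lists without a probe set were not analysed here. No label says that samples of a group came from separate infections, so a p-value reflects only the spread among these samples, possibly technical, and 3 arrays per group limit the precision.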

Additional observations from a re-analysis of the deposited data

How the results depend on the processing

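The fit over all genes called 3040 genes. It called 1803 with the replicate number as a block, 219 when each array's ACTB 3′ minus 5′ difference entered as a covariate and 1633 to 2399 with 1 array left out (1839 and 1865 without control shRNA replicates 2 and 3, 2026 and 1633 without CDKL1 shRNA replicates 2 and 3). No label says that the replicate numbers pair the samples. Deviations of same-numbered samples correlated at -0.03, -0.12 and 0.07, and 2 of 6 samples correlated best with their own number. These values gave no sign of a pairing but cannot exclude one. With the replicate number as a block CREB3, CREB3L2 and ATF6 were still called, and 4 genes of the SREBP list were, against 7. Of the 148 values of single members under the alternatives, 140 kept their sign and side of the threshold. The replicate block, the intensity trend, every probe set as its own feature and the limit to brighter genes leave the log2 change as it is. Under these settings only the side of the threshold could change, so the count of 140 overstates how far the signs were tested. ATF6B turned to -0.046 with the mean of its probe sets, and CREB3L3, which was never called, ranged from -0.20 to 0.12 with 1 array left out.

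The 3 members called became 2 with the ACTB covariate (CREB3 and CREB3L2) and 2 without _s and _x probe sets (CREB3 and ATF6), and 3 or 4 with 1 array left out. In the setting without _s and _x probe sets, a gene that had only such probe sets kept its main one, as ATF6B did. The ACTB covariate lowered the counts of called genes to 1 of 4 for ER folding and 1 of 12 for ER degradation and translocation. It left 5 of 13 for ER-Golgi transport, 2 of 5 for the IRE1 and PERK arms and 3 of 7 for the SREBP pathway. For the other bZIP factors (CREB, ATF, C/EBP, BATF and JDP2) it left 0 of 5, and 6 of that list had an unadjusted p under 0.05 (limma). The SREBP count was 4 to 6 with 1 array left out. Testing only genes brighter than the median gene gave 8 called ER folding genes, 9 other bZIP factors and 5 other proteases (against 3). An intensity trend gave 9 ER folding genes and 9 other bZIP factors. The mean of all probe sets gave 2 other bZIP factors, and leaving out _s and _x probe sets called 1 gene of the bone, cartilage and liver list. The ACTB difference did not overlap between the groups, so RNA quality and shRNA cannot be told apart by that covariate. The cause of these shifts was not tested. All alternatives were planned, and probe sets near the background range limit what can be read of dim genes.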

Other observations

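Soluble relatives of these factors were read as well. Of 16 measured bZIP factors without a membrane anchor, 5 rose, 0 fell (limma, with 9 at an unadjusted p under 0.05 in either direction) and 11 were not called. Their median log2 change was 0.07. The list held CREB and ATF factors and also C/EBP factors, BATF, BATF3 and JDP2. ATF3 counts in the list of the IRE1 and PERK arms as well. ATF5, a stress factor downstream of PERK, rose by 0.59 (SE 0.06, adjusted p = 0.00133, limma), ATF3 by 0.42, ATF7 by 0.37, ATF2 by 0.28 and CEBPD by 0.18. With the ACTB covariate 0 of these factors were called (limma, with 6 at an unadjusted p under 0.05), and with the mean of all probe sets 2 were. CREB1 and CREM, the classical mediators of cAMP signalling, had changes of -0.15 and -0.17 and were not called. CREBRF, which is known to bind CREB3 and limit it, had a log2 change of 0.17 (95% interval -0.04 to 0.39), and CREBZF, another partner of CREB3, of 0.16 (0.04 to 0.29), and neither was called.

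Of 14 other proprotein convertases and intramembrane proteases, 1 rose, 2 fell and 11 were not called, with a median log2 change of -0.03. HM13, the signal peptide peptidase, rose by 0.48 (SE 0.04). PSENEN, a subunit of gamma-secretase, fell by 0.48 (SE 0.05), and the convertase gene PCSK6 fell by 0.31 (SE 0.06). With the ACTB covariate HM13 and PSENEN were called and PCSK6 was not. FURIN, the convertase of the trans-Golgi network, had a log2 change of -0.10 (95% interval -0.20 to -0.0021) and was not called.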
